A study of Homo sapiens with 9 samples.

Results

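The lysosome genes were 34 genes picked by name from the deposited gene count table: 5 lysosomal membrane proteins, 8 cathepsins and other peptidases, 6 glycosidases, 4 enzymes of glycosaminoglycan breakdown, 6 proteins of lipid breakdown, 3 proton pump subunits and 2 transcription factors. Each had 1 row among the 58735 rows of the table, and 33 of the 34 were among the 15555 genes kept by the filter on low counts. They were measured by poly(A) RNA sequencing in VCaP, an androgen-sensitive human prostate cancer cell line whose genotype is labelled wild type. All cells were grown with fetal bovine serum and the androgen dihydrotestosterone. There were 3 libraries for each of 3 groups: siCtrl received a control siRNA, and siCDO1A and siCDO1C received different siRNAs that target CDO1. CDO1 encodes cysteine dioxygenase, which oxidizes cysteine to cysteine sulfinic acid. All 9 libraries came from this line alone, so they give no other genetic background. The labels call the libraries biological replicates and number them by batch. They do not say how the cultures were kept apart, so the p-values measure the spread between these libraries.

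Lysosomes are acidic organelles in which hydrolases take apart proteins, glycans, lipids and whole organelles delivered by endocytosis and autophagy. A proton-pumping ATPase keeps the lumen acidic, membrane proteins shield and connect the compartment, and exporters such as the cystine transporter CTNS return the products to the cytosol. Many of the genes share a promoter element around the bases CACGTG that is bound by the transcription factors TFEB and TFE3, which move to the nucleus when lysosomes are stressed or nutrients are short.

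The total count per library lay between 12061295 and 16073698. At these depths a count of 0 allows up to 0.187 to 0.249 CPM (counts scaled to library size), counting error only. CDO1 stood at 13.98 ± 0.277 CPM in siCtrl (SD, n = 3), 2.51 ± 0.675 with siCDO1A and 1.69 ± 0.976 with siCDO1C. This was a reduction of 82.1% ± 4.83 and 87.9% ± 6.98, with groups that did not overlap (two-sided exact permutation p = 0.1, the smallest that 3 against 3 allows). The replicates of siCDO1C were spread the most: the biological coefficient of variation was 5.26% in siCtrl, 7.06% in siCDO1A and 10.8% in siCDO1C, where replicate 2 stood apart from the other two. Luminal prostate markers were detected, KRT8 at 382 CPM and KRT18 at 206 CPM in siCtrl. The summed levels of leukocyte, endothelial and basal epithelial markers did not exceed 4.79 CPM in any library, and that of 4 fibroblast markers ran from 13.9 to 22.8 CPM. Most of the latter was LUM, at 11.2 to 18.6 CPM, and COL1A1 stood at 1.64 to 4.68 CPM. COL1A2 had 0 counts in every library and DCN at most 3.

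The promoter sequences are shown first because the members differ in them and because 2 of the members, TFEB and TFE3, read such letters. RefSeq (GRCh38.p14) gave a window from 250 bases before to 50 bases after the start for 26 of the 34 genes. The letters CACGTG, which read the same on both strands, were in the window of 7 of those 26 genes (26.9%), against 8.77% of all 27305 genes with a window. The longer form TCACGTGA, which contains the first, was in 5 of the 26 (19.2%), against 1.18% of all genes. The related letters TCATGTGA, or TCACATGA on the other strand, were in 2 of the 26 (7.69%), PPT1 and TPP1, against 1.24% of all genes. The 7 genes with CACGTG were ATP6V0D1, CTSA, CTSD, GAA, LAMP1, MCOLN1 and NEU1, with LAMP1 holding 6 copies between 192 bases and 1 base before its start. Below are the 100 bases before the start of 4 of them, of TPP1, which holds the related letters on both strands, and of CTSH, in whose window no match was found. Capitals mark the matches, and all are 5′ to 3′ on the strand of the gene.
GAA, chr17:80101481-80101580, plus strand: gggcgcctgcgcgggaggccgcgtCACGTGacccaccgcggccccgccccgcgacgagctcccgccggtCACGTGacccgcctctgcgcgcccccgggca
MCOLN1, chr19:7522524-7522623, plus strand: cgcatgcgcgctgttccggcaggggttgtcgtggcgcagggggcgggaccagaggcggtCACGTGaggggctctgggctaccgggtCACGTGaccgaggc
CTSA, chr20:45891235-45891334, plus strand: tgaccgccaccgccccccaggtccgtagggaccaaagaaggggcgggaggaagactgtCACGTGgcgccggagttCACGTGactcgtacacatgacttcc
ATP6V0D1, chr16:67481158-67481257, minus strand: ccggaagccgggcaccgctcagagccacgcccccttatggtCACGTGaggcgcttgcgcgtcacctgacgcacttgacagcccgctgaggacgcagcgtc
TPP1, chr11:6619423-6619522, minus strand: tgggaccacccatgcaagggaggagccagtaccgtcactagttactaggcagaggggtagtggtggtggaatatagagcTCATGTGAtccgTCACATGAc
CTSH, chr15:78945047-78945146, minus strand: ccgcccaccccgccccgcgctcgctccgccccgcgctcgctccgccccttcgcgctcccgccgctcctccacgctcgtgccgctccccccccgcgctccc

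The levels of the genes, in TPM (a scale that corrects for gene length), spanned a factor of 100 from TFEB to PSAP. PSAP, the precursor of the saposins that help enzymes reach sphingolipids, was the highest at 787 TPM over the 9 libraries and made up 28.6% of the summed level of all 34 genes. It was followed by the carboxypeptidase CTSZ (226 TPM), the proton pump accessory subunit ATP6AP1 (226 TPM) and SCARB2 (173 TPM), the receptor that carries beta-glucocerebrosidase to lysosomes. These 4 genes made up 51.2% of the sum. The lowest genes above 0 were the calcium channel MCOLN1 at 11.2 TPM, the beta-hexosaminidase subunit HEXA at 10.3 TPM, the alpha-galactosidase GLA at 9.56 TPM and TFEB at 7.86 TPM. CTSC, a dipeptidyl peptidase that activates the granule proteases of leukocytes, had 0 counts in each of the 9 libraries and was not tested.

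The order was firm only in parts. Of the 33 neighbouring pairs in it, 6 had libraries that did not overlap: PSAP over CTSZ, ATP6AP1 over SCARB2, SCARB2 over GUSB, GLB1 over SMPD1, ATP6V0D1 over MCOLN1 and TFEB over CTSC. The other 27 pairs overlapped, including all neighbours between SMPD1 at 46.3 TPM and ATP6V0D1 at 25.2 TPM. The levels of GUSB, IDS and CTSL are uncertain because near-identical copies or pseudogenes may take some of their reads. IDS also shared 38554 bases and HEXA 35063 bases with another annotated gene on the same strand, at mean counts of 22.8 beside 876.9 for IDS and 2.3 beside 466.3 for HEXA.

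**Figure D1:**
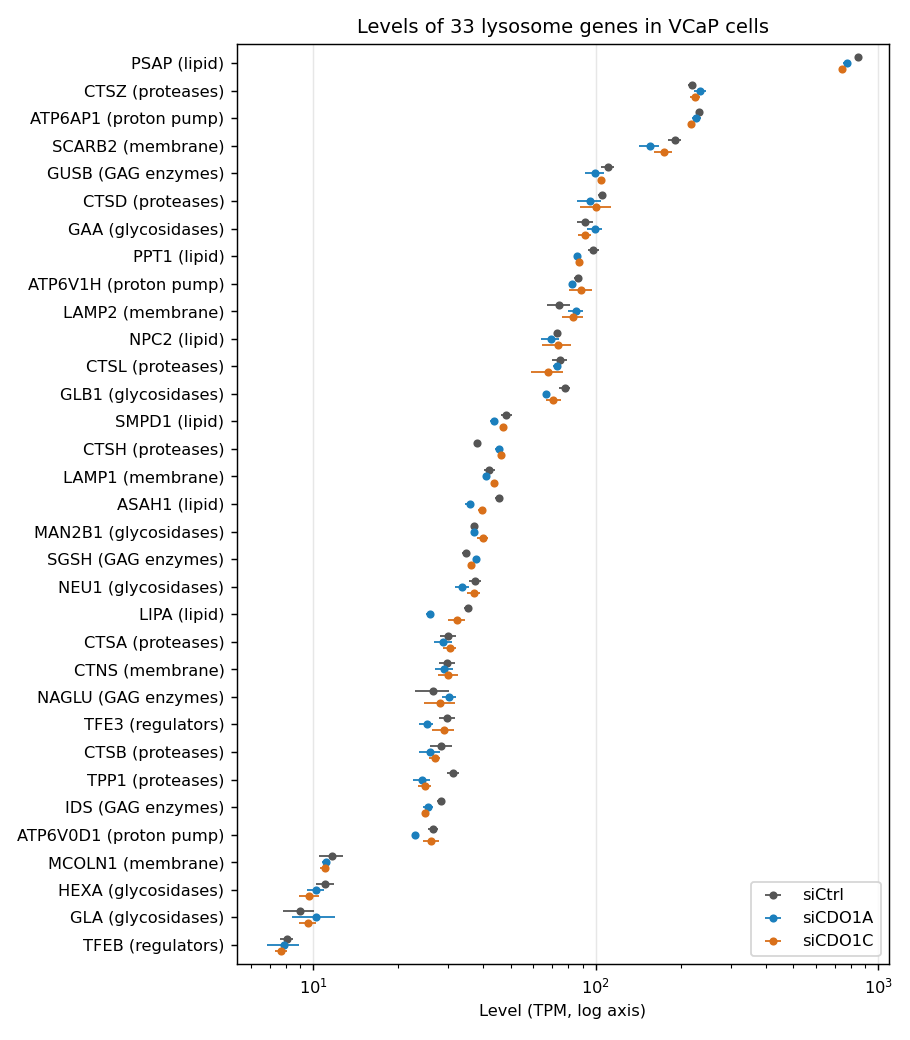
Level of 33 lysosome genes in TPM on a log axis, ordered by the mean over 9 libraries; points are means of 3 libraries per group and bars are the SD. PSAP lies far above the others, and the 3 groups lie close together for most genes.

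Each siRNA was compared with siCtrl to ask which genes follow the loss of CDO1. Both comparisons share the 3 siCtrl libraries. A gene was called at an adjusted p of at most 0.05 from edgeR's quasi-likelihood test, with Benjamini-Hochberg adjustment over all 15555 genes. With siCDO1A, 6 of the 33 genes were called (18.2%), 2 higher and 4 lower, where 14.8% of all genes were called, 7.37% higher and 7.48% lower. CTSH and LAMP2 rose, and LIPA, TPP1, ASAH1 and SCARB2 fell, by log2 fold changes between -0.41 and 0.30. With siCDO1C, 2 of the 33 were called (6.06%), where 4.77% of all genes were called, 2.27% higher and 2.5% lower. They were CTSH, which rose, and TPP1, which fell. Both were called in the same direction with both siRNAs, 6.06% of the lysosome genes beside 3.62% of all genes. In these main fits the called shares of the lysosome genes lay near those of all genes, and under some other settings given below they lay above. In bulk libraries, fewer cells with an mRNA and less of it per cell cannot be told apart.

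The median log2 fold change of the 33 genes was -0.04 with siCDO1A and -0.03 with siCDO1C, beside 0.01 and -0.00 over all genes tested. The median size of the change, regardless of sign, was 0.11 and 0.08, smaller than the 0.15 and 0.14 of all genes. All genes were not matched to the lysosome genes for level, and whether level accounts for this difference was not tested. With each siRNA 12 genes had positive and 21 negative values, and both counts rest on the same 3 siCtrl libraries. Of all genes, 8075 were positive and 7480 negative with siCDO1A, and 7770 and 7785 with siCDO1C. The libraries of siCDO1A and siCtrl did not overlap for 14 genes (42.4%), with siCDO1A above in 3 and below in 11, where 30.6% of all genes did not overlap and 15.4% lay below. For siCDO1C this held for 10 genes (30.3%), above in 2 and below in 8, where the shares of all genes were 24.2% and 12%. The counts of siCDO1C depend on its replicate 2: without it, 8 lysosome genes were called (24.2%), 1 higher and 7 lower, beside 13.3% of all genes. Added to CTSH and TPP1 were CTSL, HEXA, IDS, PSAP, PPT1 and ASAH1, all lower. Leaving out any other library of that comparison left 0 called. Without siCDO1A replicate 3, 10 genes were called with siCDO1A (30.3%), 4 higher and 6 lower, beside 22.2% of all genes. Removing each library's trends with GC content and gene length gave 12 calls with siCDO1A (36.4%), 2 higher and 10 lower. Of all genes, 21.1% were called under this setting. The 6 added genes were CTSD, GLB1, GUSB, PSAP, ATP6V0D1 and TFE3.

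**Figure D2:**
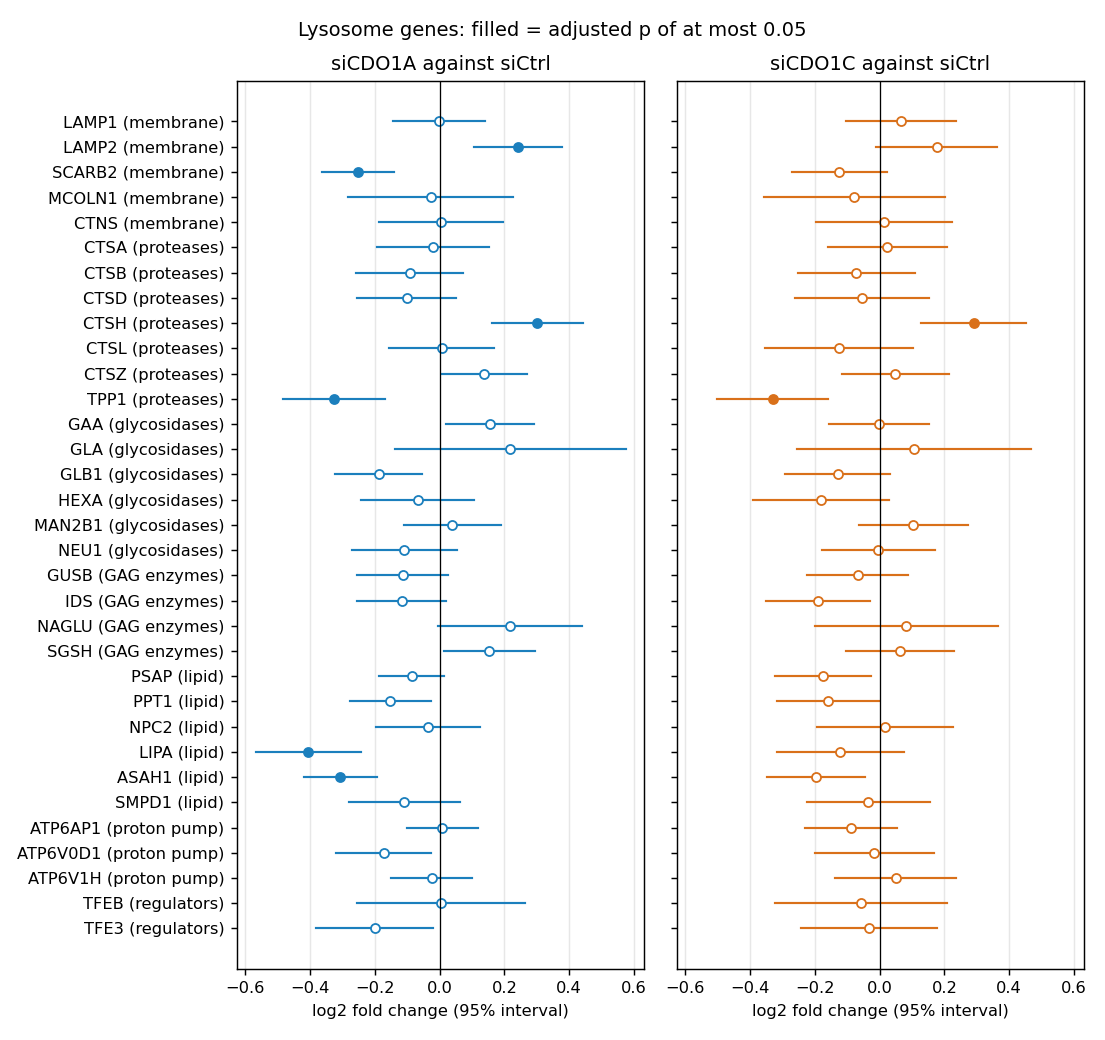
Log2 fold change against siCtrl with its 95% interval for the 33 lysosome genes tested, grouped by role, for siCDO1A (left) and siCDO1C (right). Filled points are the genes called at an adjusted p of at most 0.05: 6 with siCDO1A and 2 with siCDO1C.

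Of the 8 peptidases, CTSH and TPP1 changed with both siRNAs and in opposite directions. CTSH (ENSG00000103811, chr15:78921058-78949574, minus strand) encodes cathepsin H, a cysteine protease that works mainly as an aminopeptidase. Its level was 56.7, 59.6 and 57.6 CPM in the siCtrl libraries, 73.4, 73.0 and 68.0 with siCDO1A, and 71.8, 73.4 and 68.4 with siCDO1C. All 6 libraries with an siRNA against CDO1 lay above the 3 siCtrl libraries. The log2 fold change was 0.30 with siCDO1A (SE 0.0676, adjusted p = 0.00437) and 0.29 with siCDO1C (SE 0.0762, adjusted p = 0.0414), increases of 23.3% and 22.2%. The siRNAs gave almost the same level, with a difference of -0.01 (95% interval -0.19 to 0.17).

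TPP1 (ENSG00000166340, chr11:6612763-6619485, minus strand) encodes tripeptidyl peptidase, which removes tripeptides from protein ends and is lost in a childhood form of neuronal ceroid lipofuscinosis. Its level was 54.1, 53.9 and 51.2 CPM in siCtrl, 42.6, 39.8 and 44.5 with siCDO1A, and 41.7, 41.9 and 43.6 with siCDO1C. Again the 6 libraries did not overlap with siCtrl, here below it. The log2 fold change was -0.33 with siCDO1A (SE 0.0755, adjusted p = 0.00573) and -0.33 with siCDO1C (SE 0.0803, adjusted p = 0.0291), or changes of -20.2% and -20.4%. The difference between the siRNAs was -0.00 (95% interval -0.20 to 0.19).

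The calls of CTSH and TPP1 were firmer with siCDO1A than with siCDO1C. With siCDO1A both held under all 15 alternative settings, with adjusted p of 0.0304 and 0.0322 when the batch number was a block. With siCDO1C both held in 9 of 15. They were lost with the batch number as a block (adjusted p = 0.0859 and 0.0581) and without any of the 3 siCtrl libraries or siCDO1C replicates 1 or 3, where the adjusted p reached 0.183 and 0.153. The log2 fold change itself stayed between 0.27 and 0.32 for CTSH and between -0.36 and -0.31 for TPP1 with siCDO1C.

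In the main fits the other 5 peptidases with counts were not called in any comparison. They were CTSA, a carboxypeptidase that also protects NEU1 and GLB1, the cysteine proteases CTSB and CTSL, the aspartic protease CTSD and the carboxypeptidase CTSZ. Their log2 fold changes ran from -0.10 (CTSD) to 0.14 (CTSZ) with siCDO1A and from -0.13 (CTSL) to 0.05 (CTSZ) with siCDO1C. Of 15 alternative settings, CTSD was called in 2 and CTSZ in 1 with siCDO1A, and CTSL in 1 with siCDO1C. The summed level of the peptidases was 458 ± 13.0 CPM in siCtrl, 463 ± 19.5 with siCDO1A and 457 ± 28.7 with siCDO1C (SD, n = 3), which overlapped.

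The 6 proteins of lipid breakdown had negative values throughout with siCDO1A, and 2 of them, LIPA and ASAH1, fell. LIPA (ENSG00000107798, chr10:89213569-89414557, minus strand) encodes the acid lipase that splits cholesteryl esters and triglycerides. It stood at 44.3, 46.5 and 44.03 CPM in siCtrl, 32.98, 35.5 and 33.1 with siCDO1A, and 39.1, 46.6 and 38.9 with siCDO1C. The siCDO1A libraries lay below all others, while siCDO1C replicate 2 lay just above the siCtrl libraries. LIPA fell with siCDO1A by a log2 fold change of -0.41 (SE 0.0778, adjusted p = 0.00123), a decrease of 24.5% and the largest among the 33 genes. With siCDO1C it was -0.12 (SE 0.0916, adjusted p = 0.535), and -0.21 without that replicate 2 (adjusted p = 0.0819). The siRNAs differed by 0.29 (siCDO1C minus siCDO1A, 95% interval 0.08 to 0.50), with no overlap of their libraries, but this did not pass the adjustment (adjusted p = 0.395). The annotated span of LIPA holds the interferon-induced genes IFIT2, IFIT3 and IFIT1 on the opposite strand, at mean counts of 67.7, 48.9 and 27.3 beside 548.6 for LIPA. The libraries were strand-specific, but the strand setting of the counting is not given in the sources used here.

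ASAH1 (ENSG00000104763, chromosome 8, minus strand) encodes acid ceramidase, which turns ceramide into sphingosine. Its level was 183, 179 and 183 CPM in siCtrl, 146, 144 and 151 with siCDO1A, and 155, 171 and 152 with siCDO1C. Both siRNA groups lay wholly below siCtrl, siCDO1A the furthest. On the log2 scale the change was -0.31 with siCDO1A (SE 0.0542, adjusted p = 5.8e-04), a decrease of 19.2%, and -0.20 with siCDO1C (SE 0.0713, adjusted p = 0.141). The siRNAs differed by 0.11 (95% interval -0.05 to 0.28). Without siCDO1C replicate 2, its library with the highest ASAH1, the adjusted p for siCDO1C was 0.00169.

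PSAP, by far the most abundant member and given per library after its values were seen, stood at 701, 709 and 717 CPM in siCtrl, 686, 679 and 638 with siCDO1A, and 612, 677 and 605 with siCDO1C. All 6 values were below those of siCtrl, but the adjusted p was 0.256 (log2 fold change -0.09) and 0.184 (-0.17). Without siCDO1C replicate 2 the latter became 7.2e-04 (-0.22), the only 1 of 15 alternative settings that called PSAP with siCDO1C. Leaving out another library gave up to 0.436. PPT1, which strips palmitate from proteins, was also below siCtrl in all 6 libraries without being called. Its values were -0.15 and -0.16 on the log2 scale (adjusted p = 0.0953 and 0.263). For PPT1 with siCDO1C the adjusted p was 0.0287 without siCDO1C replicate 2, again the only call in 15 alternative settings. It reached 0.65 when another library was left out. The sterol carrier NPC2 and the acid sphingomyelinase SMPD1 had values of -0.04 and -0.11 with siCDO1A and of 0.02 and -0.03 with siCDO1C. The summed level of the 6 lipid genes was 1151 ± 13.4 CPM in siCtrl, 1047 ± 25.1 with siCDO1A and 1035 ± 67.8 with siCDO1C (SD, n = 3). The libraries of both siRNA groups lay below siCtrl, between 995 and 1113 CPM beside 1136 to 1161, and PSAP dominates this sum.

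Of the 5 membrane proteins, LAMP2 rose and SCARB2 fell with siCDO1A. LAMP2 (ENSG00000005893, chrX:120427827-120469365, minus strand) encodes an abundant glycosylated membrane protein needed for fusion with autophagosomes. It stood at 112, 109 and 97.3 CPM in siCtrl, 124, 120 and 132 with siCDO1A, and 107, 132 and 122 with siCDO1C. The siCDO1A libraries all lay above siCtrl, and siCDO1C replicate 1 overlapped with it. LAMP2 rose by a log2 fold change of 0.24 with siCDO1A (SE 0.0655, adjusted p = 0.016), an increase of 18.2%, and its value was 0.18 with siCDO1C (SE 0.0877, adjusted p = 0.304). The call with siCDO1A was lost with the batch number as a block (adjusted p = 0.0701), in a fit of all 9 libraries (0.0775) and without siCtrl replicate 3, the lowest library (0.0945).

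SCARB2 (ENSG00000138760, chr4:76158733-76234536, minus strand) stood at 979, 959 and 918 CPM in siCtrl, 771, 764 and 863 with siCDO1A, and 888, 839 and 908 with siCDO1C. Every library with an siRNA against CDO1 was below the lowest siCtrl library, by a small margin for siCDO1C replicate 3. SCARB2 fell by a log2 fold change of -0.25 with siCDO1A (SE 0.0533, adjusted p = 0.00275), a decrease of 16.1%, and its value was -0.12 with siCDO1C (SE 0.0690, adjusted p = 0.368). With GC and length trends removed the call with siCDO1A held at a smaller log2 fold change of -0.14 (adjusted p = 0.00363). The difference between the siRNAs was 0.13 (95% interval -0.04 to 0.30).

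CTNS (ENSG00000040531, chr17:3636468-3661542, plus strand) exports cystine, the oxidized dimer of the amino acid that cysteine dioxygenase consumes. Its level was 24.6, 28.5 and 25.8 CPM in siCtrl, 24.5, 26.3 and 28.02 with siCDO1A, and 25.1, 26.6 and 28.4 with siCDO1C. The groups overlapped almost completely. The log2 fold change was 0.00 with siCDO1A (95% interval -0.19 to 0.19, adjusted p = 0.984) and 0.01 with siCDO1C (-0.20 to 0.22, adjusted p = 0.961). Changes larger than these intervals were not seen, and smaller ones were not detectable with this spread. LAMP1, the companion of LAMP2, had log2 fold changes of -0.00 and 0.07, and the channel MCOLN1 of -0.03 and -0.08, none called.

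**Figure D3:**
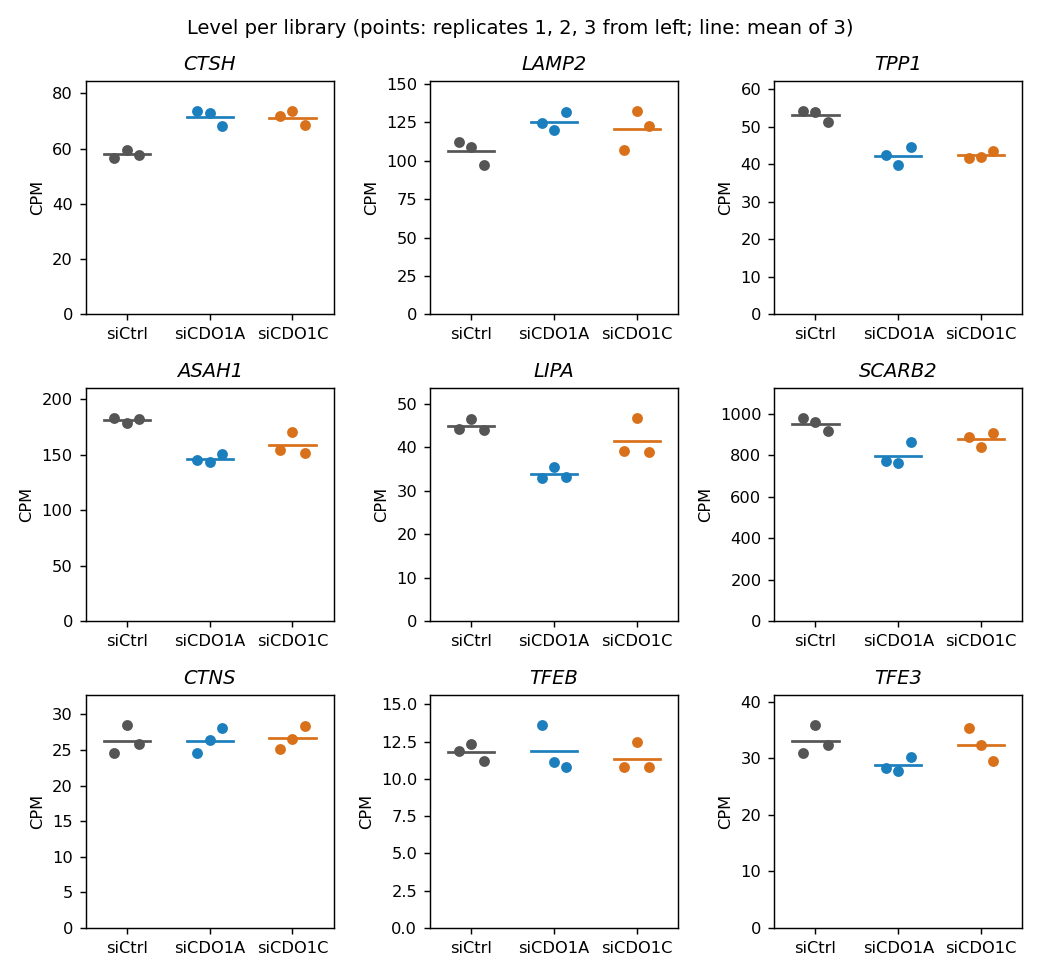
Level in CPM, from 0, in each of the 9 libraries for the 6 lysosome genes called with siCDO1A and for CTNS, TFEB and TFE3; points are libraries (replicates 1, 2 and 3 from left) and lines are group means. CTSH is higher and TPP1 lower in all 6 libraries with an siRNA against CDO1, and CTNS and TFEB overlap.

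None of the enzymes of glycan breakdown was called in any comparison. Of all genes, 14.8% were called with siCDO1A and 4.77% with siCDO1C, and these enzymes are few beside such shares. Of 15 alternative settings with siCDO1A, GUSB was called in 2, and GAA and NAGLU in 1 each. With siCDO1C, HEXA and IDS were called in 1 each. With siCDO1A the log2 fold changes of the 6 glycosidases ran from -0.19 (GLB1) to 0.22 (GLA), and those of the 4 glycosaminoglycan enzymes from -0.12 (IDS) to 0.22 (NAGLU). With siCDO1C they ran from -0.18 (HEXA) to 0.11 (GLA) and from -0.19 (IDS) to 0.08 (NAGLU). GLB1, the beta-galactosidase, was just outside the threshold with siCDO1A (-0.19, SE 0.0644, adjusted p = 0.0543). It was below siCtrl in all libraries of both siRNA groups and was called with siCDO1A in 5 of 15 alternative settings. GAA, which degrades glycogen, had 0.15 with siCDO1A (adjusted p = 0.12) and -0.00 with siCDO1C. The alpha-mannosidase MAN2B1 and the sialidase NEU1 had 0.04 and -0.11 with siCDO1A and 0.10 and -0.00 with siCDO1C. The beta-glucuronidase GUSB and the heparan sulfatase SGSH had -0.11 and 0.15 with siCDO1A and -0.07 and 0.06 with siCDO1C.

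The 3 proton pump members, ATP6AP1, the membrane sector subunit ATP6V0D1 and the cytosolic sector subunit ATP6V1H, were not called in the main fits. Their log2 fold changes were 0.01, -0.17 and -0.02 with siCDO1A and -0.09, -0.02 and 0.05 with siCDO1C. The siCDO1A libraries of ATP6V0D1 all lay below siCtrl (adjusted p = 0.111), and those of siCDO1C overlapped with it. ATP6V0D1 was called lower with siCDO1A in 2 of 15 alternative settings.

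The 2 transcription factors were not called in the main fits. TFE3 was called lower with siCDO1A in 2 of 15 alternative settings, both with GC and length trends removed, and TFEB in none. TFEB (ENSG00000112561, chr6:41683978-41736259, minus strand) stood at 11.8, 12.3 and 11.2 CPM in siCtrl, 13.6, 11.2 and 10.8 with siCDO1A, and 10.8, 12.5 and 10.8 with siCDO1C. The groups overlapped, with log2 fold changes of 0.00 (95% interval -0.26 to 0.26, adjusted p = 0.989) and -0.06 (-0.32 to 0.21, adjusted p = 0.867). TFE3 (ENSG00000068323, chrX:49028726-49043486, minus strand) stood at 30.9, 35.9 and 32.4 CPM in siCtrl, 28.4, 27.7 and 30.2 with siCDO1A, and 35.4, 32.3 and 29.5 with siCDO1C. The siCDO1A libraries lay below siCtrl, by a log2 fold change of -0.20 (95% interval -0.38 to -0.02) that did not pass the adjustment (adjusted p = 0.133), while siCDO1C gave -0.03 (-0.24 to 0.18, adjusted p = 0.904). These are mRNA levels, and both proteins are controlled mainly by where they are in the cell, which was not measured.

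None of the 7 genes with CACGTG before their start, among them GAA, MCOLN1, CTSA and ATP6V0D1 printed above, was called in any comparison. Of all genes, 14.8% were called with siCDO1A and 4.77% with siCDO1C. The 7 genes are too few to tell 0 calls from these shares. CTSD and ATP6V0D1 were called lower with siCDO1A once GC and length trends were removed. GAA was called higher with siCDO1A when its replicate 3 was left out. The median log2 fold change of the 7 genes was -0.03 with siCDO1A (from -0.17 to 0.15) and -0.00 with siCDO1C (from -0.08 to 0.07). Of the genes with the related letters TCATGTGA, TPP1 fell with both siRNAs and PPT1 was not called. CTSH, which rose, had none of these letters in its window.

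Summed over the 34 genes, the level was 3892 ± 10.8 CPM in siCtrl, 3645 ± 27.8 with siCDO1A and 3691 ± 111 with siCDO1C (SD, n = 3). The siCtrl libraries lay between 3882 and 3904 CPM and all 6 others below, between 3617 and 3819. CPM does not correct for gene length, and SCARB2 (952 CPM in siCtrl) and PSAP (709 CPM) weigh most in this sum. Their means were 799 and 668 CPM with siCDO1A, and 878 and 631 CPM with siCDO1C. In CPM, the summed levels of the peptidases, glycosidases, glycosaminoglycan enzymes and proton pump members each overlapped between siCtrl and both siRNA groups. In TPM the proton pump sums did not, at 343 to 348 in siCtrl, 321 to 341 with siCDO1A and 324 to 340 with siCDO1C. With siCDO1A the membrane proteins summed to 984 to 1097 CPM beside 1119 to 1188 in siCtrl, but overlapped in TPM. The transcription factors summed to 38.9 to 42.0 CPM with siCDO1A beside 42.8 to 48.3 in siCtrl. In CPM both of these sums overlapped with siCtrl for siCDO1C.

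Compared directly, siCDO1C and siCDO1A differed at 0 of the 33 lysosome genes, where 0.444% of all genes were called. DESeq2 also called 0, and LIPA alone had an unadjusted p under 0.05. The libraries did not overlap for 24.2% of the 33 genes, with siCDO1C above in 6 and below in 2, beside 12.7% of all genes. The median of the 33 differences was 0.01 and the differences ran from -0.15 (GAA) to 0.29 (LIPA).

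**Figure D4:**
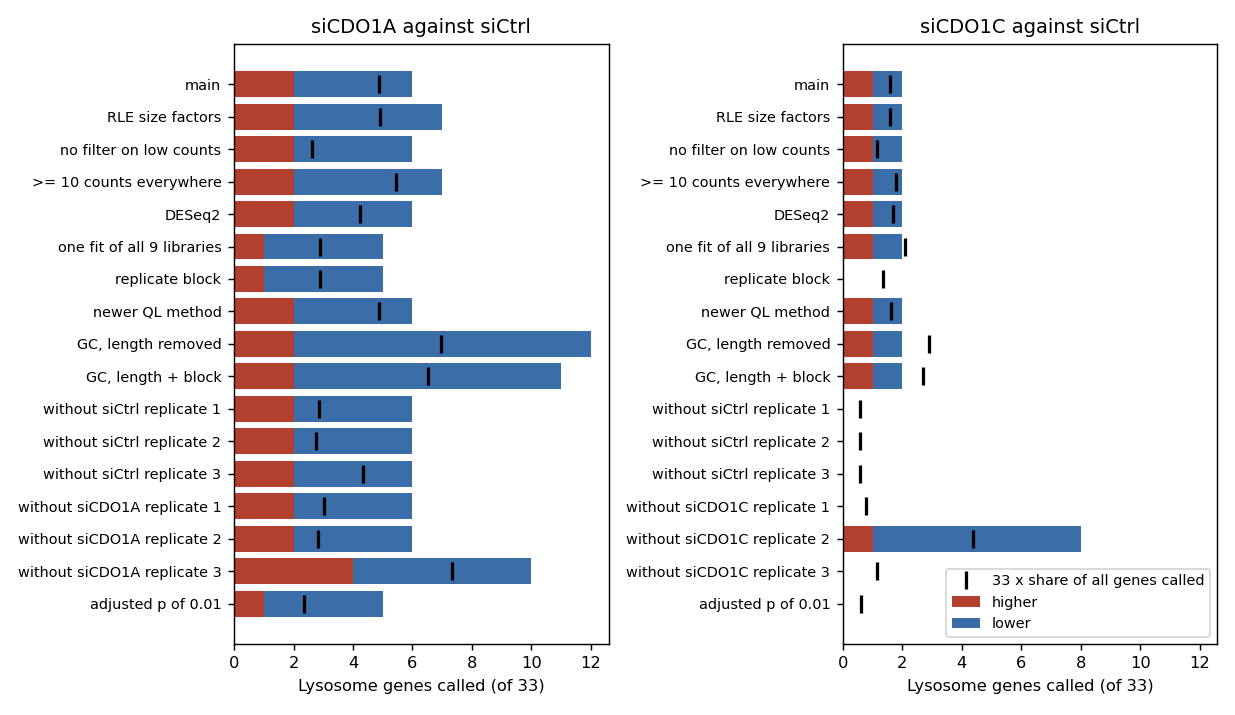
Number of the 33 lysosome genes called higher or lower against siCtrl under each setting (main result at the top), for siCDO1A (left) and siCDO1C (right). Black ticks give 33 times the share of all genes called under the same setting; the siCDO1C count goes from 2 to 0 or 8 when a library is left out.

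Other genes of the lysosome were taken from a list of 143, of which 132 passed the filter. With siCDO1A, 21 of them were called (15.9%), 3 higher and 18 lower, with a median log2 fold change of -0.06. The called share lay near the 14.8% of all genes, but its direction did not, since 7.37% of all genes were called higher and 7.48% lower. With the replicate block 9 were called (6.82%), 1 higher and 8 lower, beside 8.73% of all genes. By role, called were 3 of 32 hydrolases, 2 of 25 membrane proteins and transporters, 4 of 16 proton pump subunits, 1 of 12 genes of mannose 6-phosphate sorting, 5 of 21 genes of nutrient sensing and TFEB control, 3 of 14 of fusion and positioning, and 3 of 12 autophagy genes. With siCDO1C, 1 of 132 was called (0.758%), below the 4.77% of all genes. Without its replicate 2 the count was 25 (18.9%), 8 higher and 17 lower, above the 13.3% of all genes.

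The gene called with both siRNAs was OSTM1, the beta subunit of the chloride-proton exchanger CLC-7 of the lysosomal membrane. It stood at 39.0, 41.1 and 38.6 CPM in siCtrl, 29.1, 29.4 and 30.5 with siCDO1A, and 23.8, 28.1 and 28.1 with siCDO1C. All 6 libraries were below siCtrl. The log2 fold change was -0.41 with siCDO1A (SE 0.0800, adjusted p = 0.00132) and -0.58 with siCDO1C (SE 0.0943, adjusted p = 0.0024), and both calls held in all 15 alternative settings. The siRNAs differed by -0.16 (95% interval -0.38 to 0.06, adjusted p = 0.837).

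ATP6AP2, a second accessory subunit of the proton pump and a partner of ATP6AP1, is named here after its values were seen. It stood at 156, 157 and 153 CPM in siCtrl, 95.5, 94.2 and 94.4 with siCDO1A, and 135, 169 and 135 with siCDO1C. The siCDO1A libraries lay well below the others, and siCDO1C overlapped with siCtrl. It fell with siCDO1A by 0.71 on the log2 scale (SE 0.0565, adjusted p = 3.2e-08), whereas siCDO1C gave -0.10 (SE 0.0870, adjusted p = 0.617). The difference between the siRNAs passed the test (0.62, SE 0.0932, adjusted p = 0.00335). It was lost without siCDO1A replicate 2 (adjusted p = 0.0537). Of the 19 proton pump genes tested, members included, ATP6V1C1, ATP6V1D and ATP6V1G1 (named likewise after their values were seen) also fell with siCDO1A, by log2 fold changes of -0.22, -0.25 and -0.16, and none was called with siCDO1C. Of the 16 that are not members, 4 were called with siCDO1A (25%), beside 14.8% of all genes. The values of these 16 genes with siCDO1A had a median of -0.04. Of them, 7 were positive, the highest at 0.33, and 9 negative.

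**Figure D5:**
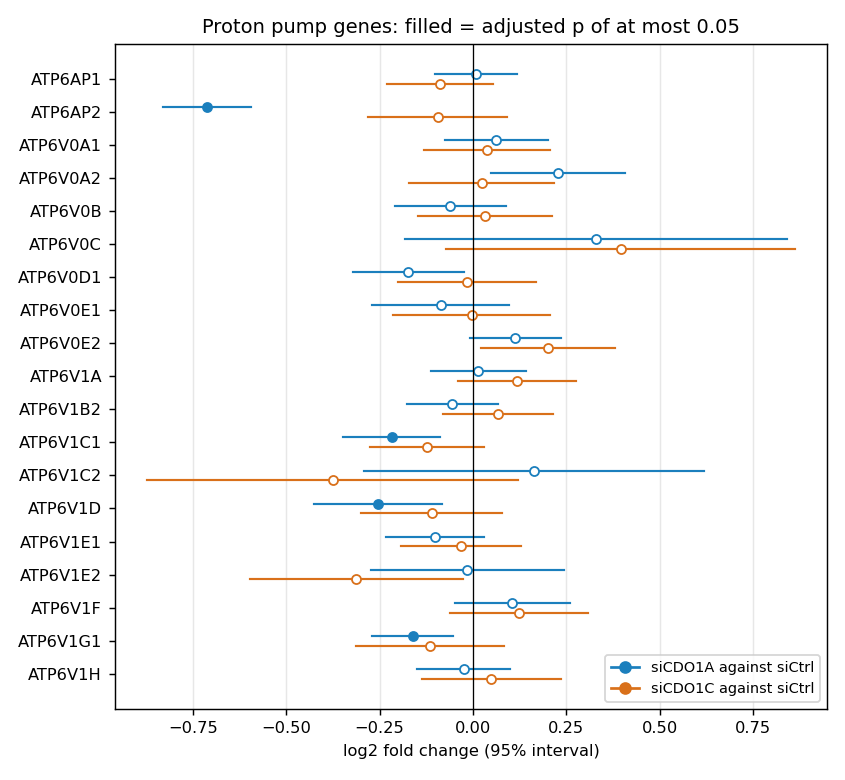
Log2 fold change against siCtrl with its 95% interval for the 19 proton pump genes tested, members and others, for siCDO1A and siCDO1C. Filled points are called; ATP6AP2 with siCDO1A is the farthest from 0 among those called.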

How the data were processed

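RNA was sequenced from 9 VCaP libraries, 3 per group, grouped by their labels. The deposited values are raw counts per gene, which the authors made from paired-end, strand-specific reads. The submitters' processing notes name CASAVA, HISAT2 2.0.5 and hg38, and the study's methods name featureCounts. Strand and multi-mapping settings are not given in the sources used here. The coordinates matched RefSeq GRCh38. The 3 count columns that match no sample were not used.

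The members and lists were chosen with earlier results of these data known. Genes were filtered with filterByExpr (minimum count 10), normalized by TMM and tested with edgeR 4.0.16 (R 4.3.3, glmQLFit robust, glmQLFTest) in the 6 libraries compared, with Benjamini-Hochberg adjustment over 15555 genes and a threshold of 0.05. CPM were computed after TMM, and TPM from the counts and the gene length of the table. The main edgeR fit of siCDO1A against siCtrl was tested on simulated counts without an outlying replicate. That simulation covered neither the comparisons with siCDO1C nor the alternative settings. Values per library are given for genes called in any comparison and for CTNS, TFEB and TFE3; of the other list, for those called with both siRNAs. PSAP and ATP6AP2 were added after their values were seen. Intervals are 95%.

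The labels give each replicate number as a batch number that recurs in every group, which would pair the libraries. The main fits did not use this pairing, and the replicate block was an alternative. The data did not show this pairing throughout: over 11337 genes, deviations from the group means of libraries numbered 1, 2 and 3 correlated at -0.202, -0.0901 and -0.376 between siCtrl and siCDO1A, 0.0527, -0.00729 and -0.277 between siCtrl and siCDO1C, and -0.133, 0.127 and 0.378 between the siRNAs. Alternatives were RLE factors, 2 other filters, DESeq2 1.42.0, a fit of all 9 libraries, the replicate block, another quasi-likelihood setting, an adjusted p of 0.01, GC and length trends (GC known for 99.3% of genes tested) and leaving out each library. No pair of replicates differed by as little as sampling noise.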

Additional observations from a re-analysis of the deposited data

Results flagged for a closer look

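ATP6AP2, an accessory subunit of the proton pump, drew attention because siCDO1C and siCDO1A differed in the direct test: siCDO1C was higher by 0.62 on the log2 scale (SE 0.0932, adjusted p = 0.00335 by edgeR's quasi-likelihood test), at 146 ± 19.9 CPM beside 94.7 ± 0.670 with siCDO1A and 155 ± 2.18 in siCtrl (SD, n = 3). Every siCDO1C library lay above every siCDO1A library. The cause was not tested.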

How the results depend on the processing

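No called lysosome gene reversed under the settings tried: of 1485 alternatives over 99 gene comparisons, 1446 kept the side of the threshold, 24 gained a call and 15 lost it. With siCDO1A the 6 calls became 12 with GC and length trends removed, 11 with the replicate block added to that, and 6 to 10 when 1 library was left out (10 without siCDO1A replicate 3). With the replicate block alone they were 5, losing LAMP2. With siCDO1C the 2 calls became 0 with the replicate block, 0 at an adjusted p of 0.01, and 0 to 8 when 1 library was left out. The calls shared by both siRNAs went from 2 to 0 with the block, 0 at 0.01, and 0 to 3 without 1 library. The count between the siRNAs was 0 throughout.

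Of the other lysosome genes, the 21 calls with siCDO1A became 10 in the fit of all 9 libraries, 9 with the replicate block, 8 at 0.01 and 10 to 34 without 1 library. The 1 call with siCDO1C became 3 without a filter, 2 with DESeq2, 3 in the fit of all 9 libraries, 2 with the block, 8 with GC and length trends removed (1 higher and 7 lower), 8 with the block added to that, and 1 to 25 without 1 library. The 1 call between the siRNAs became 0 without siCDO1A replicate 2, the range being 0 to 1. Over all genes the counts without 1 library ran from 1292 to 3454 with siCDO1A, 263 to 2068 with siCDO1C and 18 to 447 between them. The fit of all 9 libraries gave 1369 with siCDO1A, 988 with siCDO1C and 128 between them, and the block gave 1358, 634 and 121. The cause of these shifts was not tested. With 3 libraries per group, the 95% intervals of most members included 0, and smaller changes were not detectable.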
